A study of Mus musculus with 6 samples.

Results

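Chromatin accessibility around the 6 genes of the GATA factor family, Gata1 to Gata6, was described in untreated E14 mouse embryonic stem cells. The members were the ATAC-seq peaks that overlapped the RefSeq span of a GATA gene widened by 50 kb on each side, and 55 of the 77629 peaks of the library met that rule. The rule used positions only, not peak heights. ATAC-seq marks open chromatin by the insertion of sequencing adapters by the Tn5 transposase. The cells were grown in 2i/LIF medium, carried an NSD1-dTAG knock-in and had received no dTAG-13, the molecule that directs the tagged NSD1, a histone H3 lysine 36 methyltransferase, to degradation. The series lists 6 samples in 6 groups of 1, and the other 5, treated cells and embryoid bodies, were not analysed here. With 1 library there was no replicate and no test between conditions, and the intervals below are 95% intervals that cover counting error only.

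GATA factors are transcription factors with zinc fingers that bind DNA at a core of the letters GATA. GATA1, GATA2 and GATA3 are best known from blood cells, where GATA2 serves stem and progenitor cells, GATA1 the erythroid and megakaryocytic lineages and GATA3 T cells, and GATA2 and GATA3 also act in the trophoblast. GATA4, GATA5 and GATA6 act in the heart, the gut and other endoderm, and GATA6 and GATA4 are regulators of the primitive endoderm, the lineage that separates from the pluripotent epiblast in the blastocyst. GATA6 and the pluripotency factor NANOG mark the alternative fates of that separation.

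The marker genes of the labelled cell type were accessible, as were those of extraembryonic endoderm, while 1 of the 5 blood markers was. A peak within 1 kb of a start was present at all 8 embryonic stem cell markers, with a median summit pileup of 116.5. The pileup counts the reads or fragments that cover the highest point of a peak. All 6 extraembryonic endoderm markers also had one, at a median of 31, as did 4 of 6 fibroblast markers, at a median of 21, and 1 of 5 blood markers, Spi1, at 41. Over all 21883 protein-coding genes 66.7% had such a peak. Ptprc, Cd8a, Itgam and Hbb-bt had none. Of the 17 blood partners described below, 13 had one. Where no start was listed, a peak within 1 kb of either annotated end was counted, as at Spi1. A start was listed for all 8 embryonic stem cell markers, 3 of the extraembryonic endoderm, 4 of the fibroblast and 4 of the blood markers. Whether a few cells of another type contributed to any peak below was not tested.

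All 6 GATA loci held accessible sites, from 5 peaks at Gata6 to 12 at Gata1. A peak was present in the widened span of 92.7% of protein-coding genes, so the presence of peaks says little about the family. Gata1 had 12 peaks (exact Poisson interval 6.20 to 21.0), Gata3 had 11 (5.49 to 19.7), and Gata2 and Gata4 had 10 each (4.80 to 18.4). Gata5 had 7 (2.81 to 14.4) and Gata6 had 5 (1.62 to 11.7). These intervals all overlapped, and an order among the 6 loci was not tested. They treat the number of listed peaks as a random count and do not measure sequencing depth or missed peaks. The median over the 6 genes was 10 peaks, beside 7 for all protein-coding genes (quartiles 3 and 11). Gata1 had more peaks than 75.2% of all genes and Gata6 more than 33.5%. The widened spans differed in length, from 110.4 kb at Gata5 to 172.8 kb at Gata4. Per 100 kb, Gata1 had 10.2 peaks, Gata2 8.84, Gata3 8.40, Gata5 6.34, Gata4 5.79 and Gata6 3.76, beside a median of 5.07 for protein-coding genes in general.

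**Figure D1:**
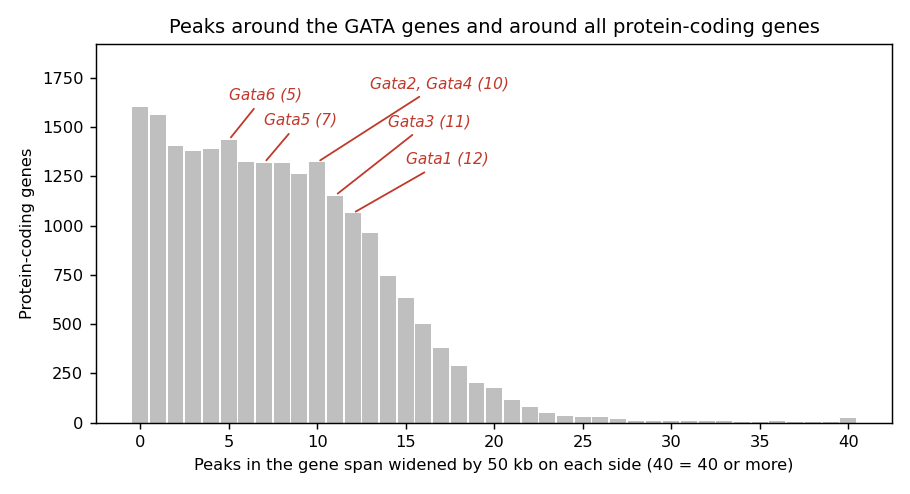
Number of protein-coding genes (vertical axis) by the number of peaks in the gene span widened by 50 kb on each side (horizontal axis). The lines point to the bars that hold the GATA genes, which lie between 5 and 12 peaks. The median of the GATA genes is 10, beside 7 for all protein-coding genes.

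Most of the 55 sites were of ordinary height for this library. Their median pileup was 26 (range 7 to 113), beside 23 over all 77533 peaks on chromosomes. A pileup of at least 20 was reached by 32 of the 55 (58.2%), beside 58.1% of all peaks. A pileup of at least 100 was reached by 4, or 7.27%, beside 6.36% of all peaks. Those 4 lay in the loci of Gata1, Gata2, Gata3 and Gata5, and the tallest peak near Gata6 reached 29. By position, 7 peaks lay within 1 kb of a member's own start or end as defined below, 9 in a gene body and 39 in a flank, with median pileups of 34, 17 and 24.

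Some of the sites belonged as much to a neighbouring gene. Of the 55 peaks, 7 lay within 1 kb of an end or listed start of another protein-coding gene, and 10 more had their summit inside one. The other 38 were clear of both: 10 at Gata2, 10 at Gata3, 6 at Gata5, 5 at Gata6, 4 at Gata4 and 3 at Gata1. Without the 7 peaks at neighbouring ends the median pileup was 21. Ends of long non-coding RNA genes within 1 kb were shared by 10 of the 55 peaks.

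**Figure D2:**
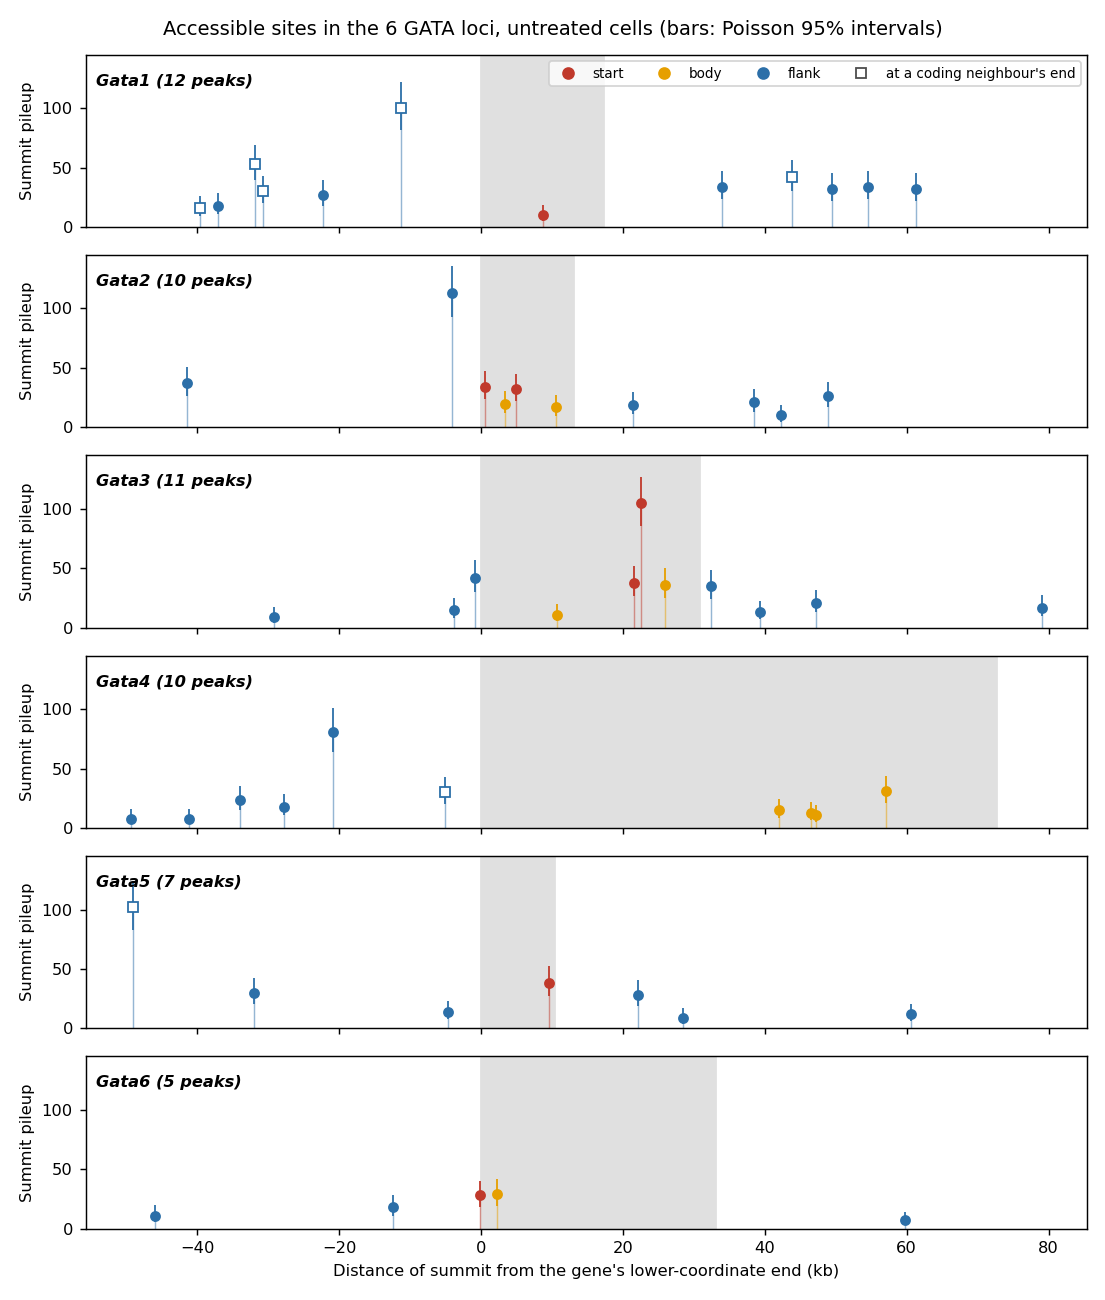
Summit pileup of every peak in the 6 loci (vertical axis, Poisson 95% intervals) against the distance of its summit from the gene's lower-coordinate end (horizontal axis, kb). Grey marks the gene span, colours the class of peak, and open squares the 7 peaks at the end of another protein-coding gene. The tallest points are the upstream peak of Gata2 at 113, a start peak of Gata3 at 105, and neighbours' peaks of 102 and 100 beside Gata5 and Gata1.

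To see which DNA these start peaks cover, the promoter sequences were taken from a RefSeq table of GRCm38.p6, which matched 4 of the 6 genes with 5 starts. Gata4 and Gata6 have no entry. The 250 bases before each start are shown 5′ to 3′ on the gene's strand, with capitals for matches to the 3 of 6 searched motifs that were found. The first is Gata1, chrX:7967911-7968160, minus strand, the next are the upstream and downstream starts of Gata2, chr6:88193641-88193890 and chr6:88198414-88198663, plus strand, and the last are Gata3, chr2:9878601-9878850, and Gata5, chr2:180334680-180334929, both minus strand.
Gata1: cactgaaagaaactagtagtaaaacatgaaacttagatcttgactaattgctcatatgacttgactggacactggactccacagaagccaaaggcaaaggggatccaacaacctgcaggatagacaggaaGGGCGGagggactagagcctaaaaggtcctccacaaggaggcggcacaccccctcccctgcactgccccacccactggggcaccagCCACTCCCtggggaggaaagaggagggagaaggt
Gata2 upstream start: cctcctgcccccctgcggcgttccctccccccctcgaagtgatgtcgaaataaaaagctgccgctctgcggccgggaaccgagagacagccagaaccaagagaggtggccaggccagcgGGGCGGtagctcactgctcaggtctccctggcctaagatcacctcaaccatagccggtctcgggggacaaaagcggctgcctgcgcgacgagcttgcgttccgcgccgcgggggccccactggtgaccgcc
Gata2 downstream start: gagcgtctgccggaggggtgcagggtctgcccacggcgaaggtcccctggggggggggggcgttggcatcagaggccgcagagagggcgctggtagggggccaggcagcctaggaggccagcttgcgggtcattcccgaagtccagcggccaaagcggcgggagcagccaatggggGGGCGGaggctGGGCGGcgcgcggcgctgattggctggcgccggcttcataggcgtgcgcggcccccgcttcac
Gata3: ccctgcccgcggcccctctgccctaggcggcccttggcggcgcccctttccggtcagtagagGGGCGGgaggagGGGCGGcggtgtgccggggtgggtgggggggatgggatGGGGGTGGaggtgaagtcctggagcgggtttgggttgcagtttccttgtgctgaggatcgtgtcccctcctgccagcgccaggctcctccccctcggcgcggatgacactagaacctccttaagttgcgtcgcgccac
Gata5: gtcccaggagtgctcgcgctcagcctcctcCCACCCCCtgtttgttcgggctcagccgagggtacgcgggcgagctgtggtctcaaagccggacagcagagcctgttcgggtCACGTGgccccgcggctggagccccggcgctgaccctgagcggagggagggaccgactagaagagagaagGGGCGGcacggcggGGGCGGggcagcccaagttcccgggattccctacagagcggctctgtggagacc

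The promoter of Gata1 stood apart from the others in base composition. It had a GC content of 54.0% and a CpG observed-to-expected ratio of 0.110, a ratio above that of only 12.8% of the 21262 promoters of protein-coding genes. The upstream and downstream promoters of Gata2 had ratios of 0.785 and 0.741, that of Gata5 0.724 and that of Gata3 0.633, with GC contents between 67.2% and 74.0%. In the whole table, a peak over the window of 300 bases (250 before and 50 after the start) was found at 60.8% of promoters. The share was 8.62% of those with a ratio up to 0.2, where Gata1 falls, and 93.9% of those above 0.6 up to 0.8, where the other 4 fall. Among the 5 GATA promoters 4 had a peak over the window, Gata1 included. The exception was the upstream start of Gata2, whose nearest peak had its summit 0.542 kb downstream of the start. The peak at Gata1 covered 236 of the 250 bases printed, that at Gata5 all 250, that at Gata3 123 and that at the downstream start of Gata2 68. Their summits lay 66 bases before the start at Gata1, 30 before it at Gata3, 26 before it at Gata5 and 97 after it at the downstream start of Gata2.

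**Figure D3:**
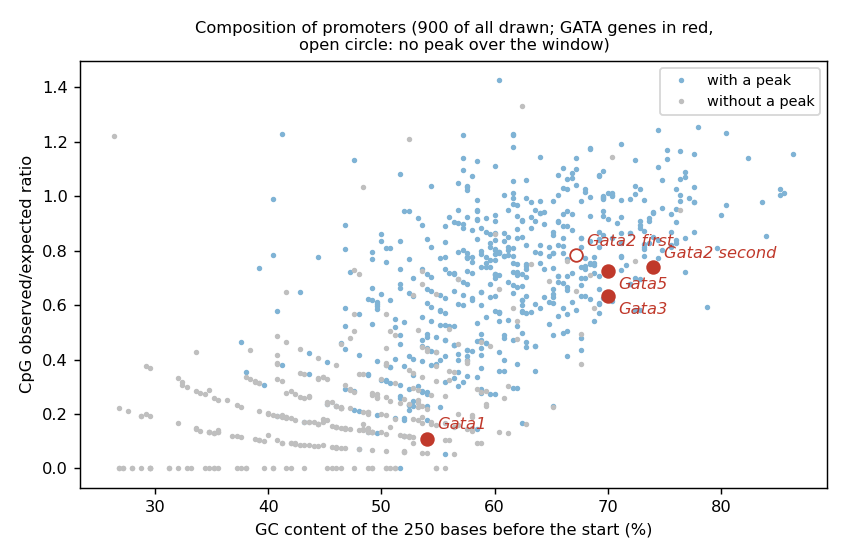
CpG observed-to-expected ratio (vertical axis) against GC content (horizontal axis, %) of the 250 bases before a start, for a random 900 of the promoters of protein-coding genes and the 5 GATA promoters. Gata1 lies at the foot of the cloud at a ratio of 0.110, and the other 4 lie between 0.633 and 0.785. The open circle, the upstream start of Gata2, had no peak over its window.

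Neither strict GATA sequence was found in the 5 promoters. AGATAA and TGATAA, searched on both strands, were in none of the 5, beside 14.6% of all 21262 promoters with at least 1 of them. The octamer ATGCAAAT was also in none (1.58% of all). The GC box CCGCCC, printed as GGGCGG where it lies on the other strand, was in all 5, beside 42.6% of all promoters. It occurred at 2 places in each of Gata3, Gata5 and the downstream promoter of Gata2. A Krüppel-like sequence, GGGNGTGG, was in 3 of 5 (Gata1, Gata3 and Gata5), beside 17.7%, and the E-box CACGTG was in Gata5, beside 6.63%. No match of one motif overlapped a match of another. The promoters of Gata2, Gata3 and Gata5 had a GC content above that of 82.3% to 93.7% of all promoters. Shares among promoters of like composition were not computed, so these counts are not separated from composition. A match is a string of letters and not a measured site.

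A peak within 1 kb of a start was present at 5 of the 6 GATA genes (83.3%, Wilson interval 43.6 to 97.0), beside the 66.7% of all protein-coding genes. The windows lay at the listed starts, and at both annotated ends where no start was listed, as for Gata4 and Gata6. The peak at Gata1 had a pileup of 10 (interval 4.80 to 18.4), those at Gata2 had 34 (23.5 to 47.5) and 32 (21.9 to 45.2), and that at Gata5 had 38 (26.9 to 52.2). Gata3 had a peak of 38 (26.9 to 52.2) across its start and one of 105 (85.9 to 127.1) whose summit lay 1.08 kb upstream. Gata6 had one of 28 (18.6 to 40.5). Gata4 had none at its annotated ends, and starts inside its span were not looked up, so a peak at an internal start would count as a body peak. With a -log10 q of at least 5 4 members kept a start peak (64.8% of all genes), since the peak at Gata1 has a value of 4.82. With both annotated ends used for every gene, 4 members had one as well (66.5% of all genes), again without Gata1. Taking the tallest peak of each gene, only Gata3 exceeded the median of 67 over all 14590 genes with such a peak. It did so through the peak of 105, and had 38 where the summit had to fall inside the window. The median of the tallest peaks of the 5 genes was 34.

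In the order of these heights, 2 of the 4 steps exceeded counting error. The genes were put in order by the same heights, and the intervals were not adjusted for that. Gata3 over Gata5 was a ratio of 2.76 (exact interval 1.89 to 4.12). That step rested on the upstream peak of 105, for with narrower windows (500 bp), or if a summit had to fall inside them, Gata3 had 38, as Gata5 did. Gata5 over Gata2 was 1.12 (0.685 to 1.83) and Gata2 over Gata6 was 1.21 (0.715 to 2.08), so these genes were not distinguishable. Gata6 over Gata1 was 2.80 (1.32 to 6.46), with Gata6 measured at its annotated ends and Gata1 at a listed start. X, the chromosome of Gata1, had lower start peaks in general, with a median of 42, beside 64 on chromosome 18, that of Gata6. A start peak was present at 49.1% of the 966 genes on X. The ratio of Gata6 over Gata1 was not adjusted for chromosome or copy number, and a difference beyond these was not tested. Among genes on X with a start peak, 2.74% had a lower one than Gata1.

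Most start peaks of the GATA genes had a low fold over their surroundings, with Gata5 and the tall peak of Gata3 as exceptions. Fold enrichment, the authors' ratio of a summit to its local background, was under 5 in 5 of the 7 start peaks, beside 12.1% of all 15185 start peaks. The bound of 5 was chosen after the values were seen, and peaks of 1 gene share a locus. Folds were 2.88 and 4.18 at Gata2, 3.35 and 9.03 at Gata3, 3.92 at Gata6, 4.78 at Gata1 and 10.9 at Gata5, beside a median of 10.4. The low folds came with different backgrounds. The local background was 11.1 and 6.89 at Gata2, 10.6 and 10.7 at Gata3 and 6.41 at Gata6, all above the median of 4.76 for start peaks. It was 1.30 at Gata1, the lowest value in the list, and the summit there was low as well. Gata5 had a background of 2.59, and its fold lay between the quartiles of all start peaks. Peaks were called without a control, so the background came from the same library and may hold reads of neighbouring peaks. How far the tall peaks near the starts of Gata2 and Gata3, or the body peak near the end peak of Gata6, added to these backgrounds was not tested.

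**Figure D4:**
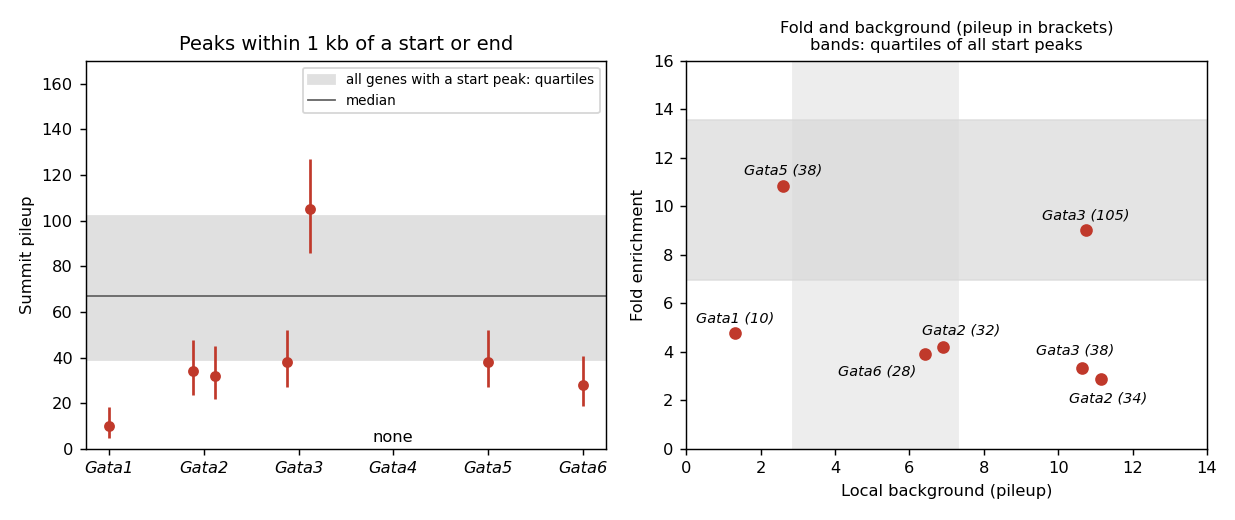
Left, summit pileup of each start peak of the GATA genes (points, Poisson 95% intervals) with the median and quartiles of all genes with a start peak. Right, fold enrichment against local background of the same peaks, with bands for the quartiles of all start peaks. Gata2, Gata6 and 1 peak of Gata3 combine a background above the median of start peaks with a fold under 5. Gata1 has a low background and a low summit, and Gata5 has a background of 2.59 and a fold of 10.9. The background may include reads of neighbouring peaks.

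Gata2 and Gata3, which share roles in blood and trophoblast, each had a tall site upstream of a start and lower sites around it. The tallest site of all 55 lay upstream of Gata2 at chromosome 6, 88189517 to 88190376. It had a pileup of 113 (93.1 to 135.9), a fold of 12.8 and a summit 4.1 kb before the upstream start. The body peaks of Gata2 had 20 and 17, the taller at 88197222 to 88197577. That peak and the start peak of 32 at 88198596 to 88198927 were both also at an end of the lncRNA gene Gm38708. The next tallest flank peak, 41.5 kb before the gene at 88151909 to 88153347, had 37 (26.1 to 51.0) and lay at an end of the lncRNA gene Gm38856. Beyond the other end of Gata2 the flank held 4 peaks with pileups of 10 to 26, and none lay at an end of Dnajb8, its one protein-coding neighbour there.

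At Gata3 the tall peak of 105 lay at chromosome 2, 9879372 to 9879858, and the lower start peak at 9878419 to 9878723. The tallest body peak, at 9882517 to 9883126 with a pileup of 36 (25.2 to 49.8), and a flank peak of 35 (24.4 to 48.7) at 9889073 to 9890015 both lay at ends of the lncRNA gene 9230102O04Rik. Flank peaks were led by one of 42 (30.3 to 56.8) at 9855895 to 9856756, 0.891 kb beyond the end of Gata3 that is opposite to its start. The remaining flank peaks of Gata3 had pileups of 9 to 21. In all, 7 of the 11 peaks lay within the gene or within 5 kb of it.

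Most of the peaks around Gata1 lay at or inside other genes. Its start peak, at chromosome X, 7967925 to 7968170, was the 1 peak inside the gene and the lowest of the 12. The tallest, 100 (81.4 to 121.6) at 7947566 to 7948282, lay at the start of Hdac6, which encodes a cytoplasmic deacetylase. The next, 53 (39.7 to 69.3) at 7927109 to 7927945, lay at an end of Eras, a Ras family gene known from embryonic stem cells. In all, 5 of the 12 were at ends of Pcsk1n, Eras, Hdac6 or Glod5, and 4 more were inside Pcsk1n, Hdac6 or Glod5. On the upstream side of the start the nearest peak was one of 34 (23.5 to 47.5), with its summit 25.3 kb away, after a stretch of 24.7 kb with no peak. Gata1 is known for an erythroid enhancer close upstream of its first exon. The position of that enhancer was not looked up, so whether it lies in the stretch without a peak was not tested. Genes on X had a median of 2 peaks in the widened span, and 96.5% had fewer than Gata1.

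In the group that acts in heart and endoderm, Gata4 had no peak at either annotated end and 4 peaks inside its span of 72799 bp, any of which could lie at an internal start that was not looked up. The pileups of these 4 peaks were 15 (8.40 to 24.7), 13 (6.92 to 22.2), 11 (5.49 to 19.7) and 31 (21.1 to 44.0). The peaks of 13 and 11 lay next to each other at chromosome 14, 63245288 to 63245688 and 63245940 to 63246381. The tallest lay at 63255507 to 63256373 with a fold of 10.4. All 6 flank peaks of Gata4 lay on one side, in or at Fdft1, which encodes squalene synthase, and Neil2, a DNA repair glycosylase. The tallest, 81 (64.3 to 100.7) at 63177633 to 63178432, was inside Fdft1, 20.9 kb from Gata4, and the next, 30 (20.2 to 42.8), was at an end of Neil2. The flank on the other side of Gata4 held no peak, and 46.5 kb without one separated the peak at Neil2 from the first in the body.

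Gata5 had a single, wide site at its start, and its tallest flank peak lay at a neighbouring gene. The start peak, at chromosome 2, 180333942 to 180335177, was 1236 bp wide, and no other peak lay inside the gene. The tallest flank peak, 102 (83.2 to 123.8) at 180275877 to 180276193, was 49.05 kb away at an end of Rbbp8nl. The next, 30 (20.2 to 42.8) at 180292905 to 180293250, lay at the lncRNA gene Gm29943. The other 4 flank peaks had pileups of 9 to 28.

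Gata6 had the fewest sites, and the tallest pair lay around its end of lower coordinate. The peak at that end, on chromosome 18, 11052326 to 11053516, was also at an end of the antisense gene Gata6os. The body peak at 11054049 to 11055013 had a pileup of 29 (19.4 to 41.6) and a fold of 4.26, close to the 28 and 3.92 of the end peak. The 3 flank peaks had pileups of 18 (10.7 to 28.4), 11 and 7, with summits 12.4, 46.0 and 26.7 kb outside the gene. Between the body peak and the flank peak beyond the gene, 57.3 kb held no peak, the longest such stretch between neighbouring peaks in the 6 loci. No peak at the lowest background had a pileup under 6, and weaker sites in these stretches were not detectable.

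Partners and relatives of the GATA factors had start peaks at 68.8% to 88.9% of the genes of each list, above the share of genes in general. That share lay inside the Wilson interval of each such list. The lists differed in the height of their start peaks. Each count is of genes with a peak within 1 kb of a listed start, or of either annotated end where none was listed. It stands beside the 66.7% of all protein-coding genes and their median pileup of 67. Where no start was listed, the peak called a start peak may lie at the opposite end. Unlike the member peaks, those of the gene lists and cell type markers were not checked for ends of other protein-coding genes. A start peak of a list gene, tall ones included, may therefore belong as much to a neighbour. Of the list genes named here and below, Zfpm2, Sox17, Lama1, Lamc1, Tead4, Klf5, Tbx3, Prdm14 and Dppa3 had no listed start. Of 17 blood partners 13 had one, with a median pileup of 49. Klf1, an erythroid regulator, reached 135 and Zfpm1, whose product FOG1 binds GATA1, reached 124 (103.1 to 147.8). Tal1, which works with GATA factors in blood stem cells, had 49 (36.3 to 64.8), and Gfi1b and the globin gene Hba-a1, one of near-identical copies where a missing peak is uncertain, had none. Of 16 heart and gut partners 11 had one, with a median of 39. Foxa3 reached 120 and Tbx20 reached 70, Zfpm2, which encodes the GATA4 partner FOG2, had 27 (17.8 to 39.3), and Foxa1 and Hnf4a had none.

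Of 15 primitive endoderm genes 12 had a start peak, with a median of 52.5. The laminin genes Lama1 (130) and Lamc1 (114) had the tallest, Sox17 had 62 (47.5 to 79.5), and Afp and Amn had none. Col4a1 and Col4a2 are neighbours and both had a value of 57. Of 16 genes that act with Gata2 and Gata3 in trophoblast, ear or T cells 12 had one, with a median of 40.5. Tead4 (92) and Krt8 (65) led, and the cytokine genes Il13 and Il4 had none. The median pileup of the GATA genes, 34, was below that of each of these 4 lists, though with 5 values it rests on few genes.

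The other genes with GATA-type zinc fingers and the pluripotency genes had taller start peaks. Of 9 such zinc finger genes 8 had one, with a median of 82. Gatad2a (208) and Gatad2b (184), which encode subunits of the NuRD complex, led, and Mta1 of the same complex had none. Of 15 naive and core pluripotency genes 14 had one, with a median of 109. Klf5 (256) and Tbx3 (163) led, Pou5f1 had 152 (128.8 to 178.2), Nanog had 58 (44.04 to 74.98), and Dppa3 had none. The interval of Nanog lay above that of Gata6 (18.6 to 40.5), but Esrrb of the same list had the value of Gata6, 28, and the intervals of Prdm14 (29.4 to 55.6) and Nr0b1 (31.1 to 57.9) overlapped it. In the widened span, the median count of peaks was 12 for the pluripotency genes and 16 for the zinc finger genes, beside 10 for the GATA genes. It was 11 for the trophoblast, ear and T-cell list, 9 for the blood partners, 8 for the primitive endoderm genes and 7.5 for the heart and gut partners.

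**Figure D5:**
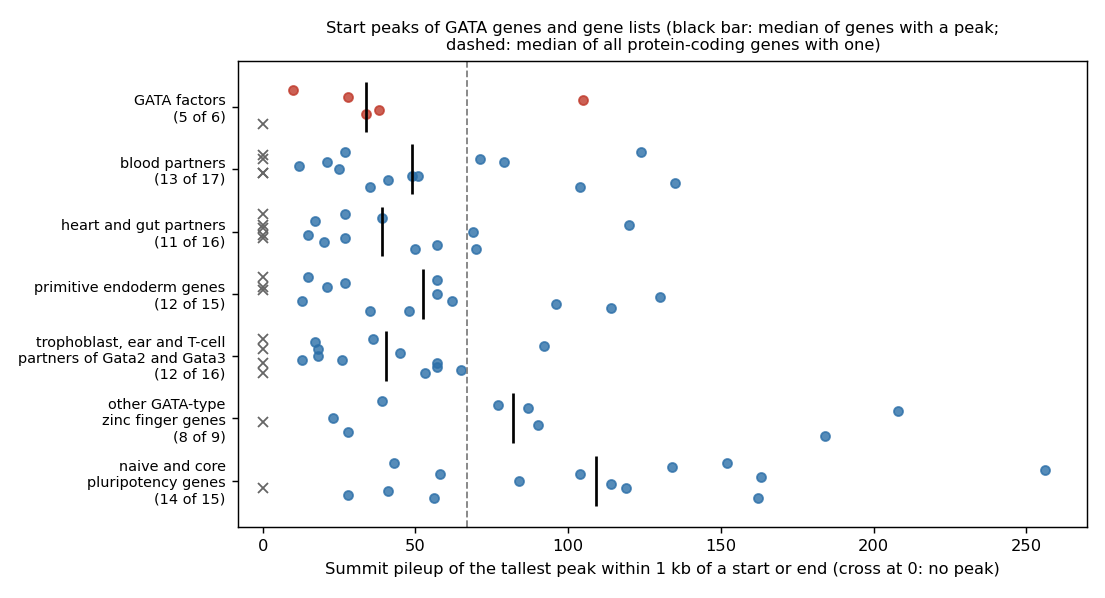
Summit pileup of the tallest start peak (horizontal axis) for each GATA gene and each gene of the 6 lists (rows), with crosses at 0 for genes without one. Genes with no listed start were searched at both annotated ends. Black bars are the medians of genes with a peak, from 34 for the GATA genes to 109 for the pluripotency genes, and the dashed line marks 67, the median of all protein-coding genes that had one.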

How the data were processed

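ATAC-seq peaks of 1 library, untreated E14 NSD1-dTAG cells, were analysed. Among the tools in the submitters' processing notes are MACS2 2.2.6, a peak caller, and the aligner Bowtie2 2.3.4.1, and the genome builds listed are mm10 and GRCm38.p6. Sources used here give no read filters, Tn5 shift or read total. Reads from PCR copies, if kept, would raise pileups. Per the deposited file's own label, peaks were called without a control at a q of 0.05. The deposited list gives a score per peak (10 times the -log10 q, rounded down, in 100% of peaks), the authors' fold, a ratio of summit to local background, and the authors' -log10 p and -log10 q.

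Summit pileup and background were solved from fold = (pileup + 1)/(background + 1) and the Poisson p. Whole pileups (tolerance 0.01) resulted for 77626 of 77629 peaks. On simulated data 100% of 5000 pileups were recovered. A unit may be a read or a fragment, which no label or header states. Gene spans came from RefSeq GRCm38.p6, and starts from its promoter table for 17491 of 21883 protein-coding genes (79.9%). Other genes used both annotated ends. A start peak overlapped a window of 1 kb either side by 1 bp or more. A body peak had its summit in the span and a flank peak outside it. Intervals are exact Poisson, exact binomial for ratios and Wilson for the share of genes. No genome sequence was used, so motifs were searched in promoters only, not in peaks.

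The members and the 6 gene lists were chosen with earlier results of these data known. Named peaks were the tallest at the start, in the body and the tallest 2 in the flanks. Named list genes were the 2 with the tallest start peak and the first 2 in alphabetical order without one, plus Zfpm1, Zfpm2, Tal1, Sox17, Pou5f1 and Nanog. Other peaks, blood markers without one, and Esrrb, Prdm14 and Nr0b1 were picked by name once values had been seen. Alternatives varied the flank, window, overlap rule and q. The software was scipy 1.17.1, pandas 2.3.3 and numpy 2.4.6 in Python 3.11.15, with plots from matplotlib 3.10.9.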

Additional observations from a re-analysis of the deposited data

How the results depend on the processing

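Of 56 values computed under an alternative setting, 50 stayed within 1.5 times the reported count or within the Poisson interval of the reported value. The number of peaks in the 6 loci was 33 with a flank of 25 kb and 83 with one of 100 kb, which follows from the shorter and longer spans. The tallest start peak of Gata3 was 38 with windows of 500 bp and also with the summit required in the window, since the peak of 105 has its summit 1.08 kb from the start. With windows of 500 bp, a start peak was present at 10 of 17 blood partners, 9 of 15 primitive endoderm genes and 10 of 16 trophoblast, ear and T-cell genes. The other lists kept their counts, and the share of all protein-coding genes was 64.6%. Using both annotated ends for every gene, a setting added after seeing the data, gave 42 for Gata3 and 0 for Gata1, whose listed start lies inside its annotated span. The search for motifs around summits was not run, as no genome sequence was used. No paired analysis was possible because 1 library was analysed. The counts cannot separate neighbouring genes from the members, and a missing peak means only that none passed a q of 0.05 at this depth.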
